A study of Mus musculus with 15 samples.

Results

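Autophagy delivers parts of a cell to the lysosome for breakdown. The ULK1 kinase complex starts the process, the phosphatidylinositol 3-kinase (PI3K) complex around Beclin 1 marks the forming membrane, and ubiquitin-like conjugation by ATG7 and the ATG12-ATG5 complex attaches lipid to LC3 and GABARAP proteins, which coat the autophagosome. Mitophagy is the removal of mitochondria by the same route, either after PINK1 accumulates on damaged mitochondria or through receptors of the outer mitochondrial membrane such as BNIP3L (also called NIX) and FUNDC1. In haematopoietic stem cells (HSC) autophagy is known to clear active mitochondria and to help keep the cells in a low metabolic state.

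The 10 genes described here were chosen by name as core genes of these processes: Ulk1, Becn1, Atg7, Atg5, Map1lc3b, Gabarap, Sqstm1, Pink1, Bnip3l and Fundc1. All 10 were among the 16154 genes of the deposited count table. RNA was measured in HSC of C57BL/6 mice, all labelled female, with 5 libraries each from young mice aged 6 to 12 weeks, from aged mice of 20 to 24 months, and from aged mice of 20 to 24 months that received nicotinamide riboside (NR, a precursor of NAD) at 3 mg/ml in their drinking water for 2 months (A + NR). HSC were sorted from bone marrow as cells negative for lineage markers and CD48 and positive for Sca-1, cKit and CD150, and each library is described as coming from an individual mouse. No transgene is named in the labels, and a sorted population of this kind is enriched for stem cells rather than made up of them alone. Libraries were biased to the 3′ end of transcripts and held unique molecular identifiers (UMIs), so that copies of a molecule made by PCR could be removed. Values are CPM, the count of a gene scaled to a common library total, with library sizes set by the trimmed mean of M-values (TMM), and they are compared between groups, not between genes.

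The total count per library lay between 2122221 and 3631395 in young, between 764119 (aged replicate 2) and 13318989 (aged replicate 3) in aged and between 2486399 and 3595384 in A + NR HSC. At the smallest total, 3 counts, taken as the least that can be told from absence, corresponded to 3.89 CPM. Y-linked transcripts summed to 99.7 CPM in young replicate 1 and 105 CPM in young replicate 5, against at most 3.00 CPM in the other 13 libraries, which goes against the label of these 2. Xist, the RNA made from the inactive X chromosome of females, was at 420.0 and 472 CPM in them, inside the range of 293 to 895 CPM of the other libraries. Both kinds of RNA were thus present in these 2 libraries, and whether each came from an individual mouse was not tested. Young replicate 3 had a high sum of granulocyte genes, 5723 CPM against 224 to 819 CPM in the other young libraries. All 12 HSC markers looked at were in the table, and their summed level was 2184 to 2633 CPM in young, 2638 to 3040 CPM in aged and 2305 to 2871 CPM in A + NR HSC. Of these, Ly6a, Slamf1, Procr and Hoxb5 were higher in aged than in young HSC, and Ly6a, Procr and Hoxb5 also in A + NR than in young HSC. Slamf1, which encodes the CD150 used in the sort, was lower in A + NR than in aged HSC by a log2 difference of -0.51 (edgeR, adjusted p = 0.0288).

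Transcripts of mature blood cells differed between the groups (plot of marker sums by library). The sum of 12 erythroid genes was 2313 to 4690 CPM in young, 5590 to 9003 CPM in aged and 1949 to 3073 CPM in A + NR HSC. Of these 12 genes, 5 rose from young to aged, and 9 fell from aged to A + NR. Most of the A + NR sum came from Car2, a carbonic anhydrase gene, at a mean of 2114 CPM, whereas Hba-a1, an alpha globin gene, averaged 20.7 CPM in A + NR and 199 CPM in young HSC. The 9 B and plasma cell genes of the table summed to 106 to 834 CPM in young, 606 to 4423 CPM in aged and 88.3 to 166 CPM in A + NR HSC. For 10 granulocyte genes the sum was 1454 to 2219 CPM in aged and 267 to 476 CPM in A + NR HSC. Prtn3 made up most of the A + NR sum, at a mean of 315 CPM. It was higher in A + NR than in young HSC by a log2 difference of 0.73, while 7 of the 10 genes passed with lower values. The sum of 8 monocyte and macrophage genes was 401 to 3109 CPM in young, 874 to 2241 CPM in aged and 317 to 551 CPM in A + NR HSC. Lyz2, at a mean of 352 CPM in A + NR HSC, made up most of that sum there. The sum of Cd48, Flt3 and Cd34, which mark progenitors, was 165 to 246 CPM in young, 85.6 to 119 CPM in aged and 76.0 to 98.4 CPM in A + NR HSC. Cd34 made up most of that sum, and Cd48, whose protein the sort excludes, went another way, with means of 12.2 CPM in young, 24.2 CPM in aged and 3.50 CPM in A + NR HSC. Cd48 was lower in A + NR than in aged HSC by a log2 difference of -2.83 (edgeR, adjusted p = 0.00776), while in aged against young HSC it did not pass (adjusted p = 0.125). The sums of 6 T and NK cell genes and of 6 platelet and megakaryocyte genes overlapped between all groups, although Itga2b of the latter list, the integrin gene of megakaryocytes that HSC also express, was higher in A + NR than in aged HSC, at 188 against 90.0 CPM. By median, the erythroid, B and plasma cell, granulocyte and monocyte sums moved in the same direction as several of the genes below. Their part in those differences was not tested. In RNA pooled from many cells, fewer cells of a type and less RNA per cell cannot be told apart.

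**Figure D1:**
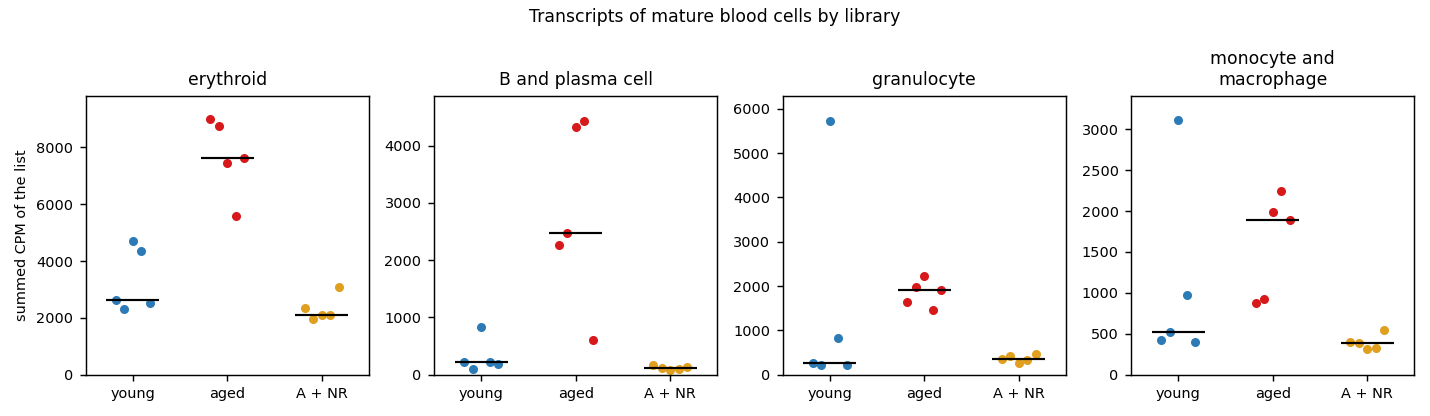
Summed CPM (vertical axis, from 0) of marker lists of mature blood cells in each of the 5 young, 5 aged and 5 A + NR libraries. Points are libraries and horizontal lines are medians. The erythroid sum was 5590 to 9003 CPM in aged HSC and at most 4690 CPM in both other groups, and young replicate 3 held the highest granulocyte sum, 5723 CPM.

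The question asked of the young and aged libraries was which of the 10 genes change with age. Map1lc3b, which encodes the LC3B coat protein, Gabarap, a second coat protein of the same family, and Fundc1, a mitophagy receptor that responds to low oxygen, were higher in aged HSC. The increases were 52.5% for Map1lc3b, 48.2% for Fundc1 and 25.6% for Gabarap. None of the 10 genes was lower at an adjusted p of 0.05, though Ulk1, Becn1 and Pink1 had negative log2 differences. Thus 3 of 10 genes passed an adjusted p of 0.05, where 19.3% of all genes passed, 9.68% with higher and 9.63% with lower values in aged HSC. The libraries of the 2 groups did not overlap for 2 of the 10 genes, against 12.4% of all genes. The median log2 difference was 0.12 over the 10 genes and -0.03 over all genes.

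NR treatment of aged mice was asked about in the same way, by setting A + NR against aged HSC. Map1lc3b fell by 29.8%, Fundc1 fell by 28.8% and Bnip3l, a mitophagy receptor needed for mitochondrial clearance in maturing red cells, fell by 26.2%. None of the 10 rose. These 3 of 10 genes compare with 8.07% of all genes that passed, 3.88% with higher and 4.18% with lower values in A + NR HSC. Libraries of A + NR lay below all aged libraries for the same 3 genes, and 8.60% of all genes had no overlap in either direction. The median log2 difference was -0.13 over the 10 genes and 0.02 over all genes. Both comparisons share the 5 aged libraries, so that opposite directions in them are not independent of each other.

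Between A + NR and young HSC none of the 10 genes passed edgeR's test, and 1 of them, Bnip3l, had an unadjusted p under 0.05. In this comparison 4.47% of all genes passed, 2.56% higher and 1.91% lower in A + NR HSC. Libraries did not overlap for Bnip3l alone among the 10, where 4.74% of all genes had no overlap. With DESeq2, 1 of the 10 genes passed, again Bnip3l, which was lower.

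**Figure D2:**
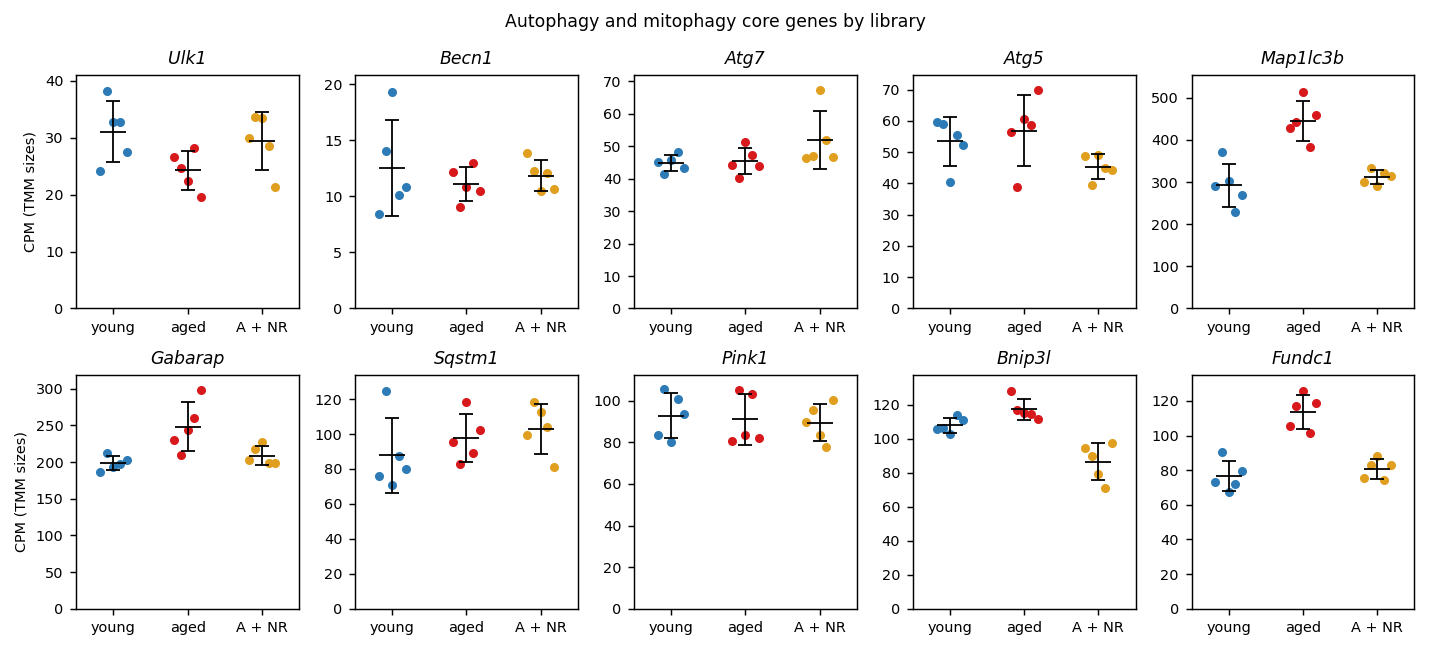
CPM on TMM library sizes (vertical axes, from 0) of the 10 genes in each young, aged and A + NR library, with 5 libraries per group. Points are libraries, and black bars give the mean and SD. Map1lc3b and Fundc1 in aged HSC lie above both other groups without overlap, and Bnip3l in A + NR HSC lies below both other groups.

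**Figure D3:**
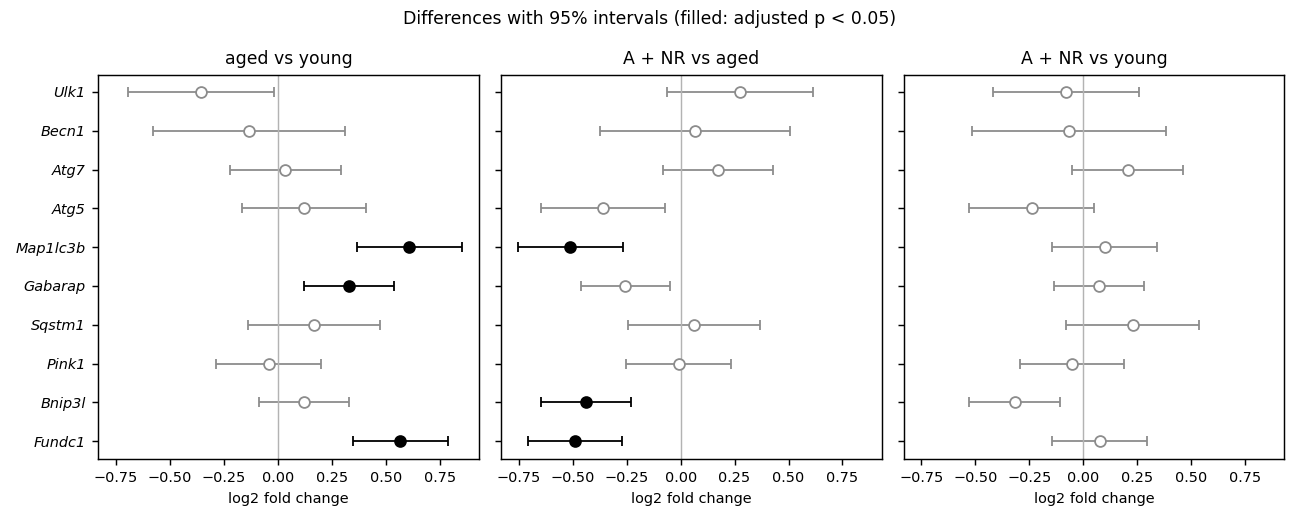
Log2 fold changes (horizontal axes) of the 10 genes in the 3 comparisons, with 95% intervals from edgeR's quasi-likelihood fit. Filled points passed an adjusted p of 0.05. Filled points are all above 0 for aged against young HSC and all below 0 for A + NR against aged HSC, and none is present for A + NR against young HSC.

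Initiation was represented by Ulk1, the kinase that starts autophagy when nutrients or energy run low (chromosome 5, 110784488 to 110810097, minus strand, GRCm38, GENCODE M21 gene model, as for every position given below). It was read at 31.1 ± 5.38 CPM in young, 24.2 ± 3.42 CPM in aged and 29.4 ± 5.06 CPM in A + NR HSC (mean ± SD, n = 5 each). Young libraries spanned 24.2 to 38.2 CPM and aged libraries 19.5 to 28.1 CPM, so the groups overlapped. The log2 difference between aged and young HSC was -0.36 with a 95% interval from -0.70 to -0.02 (edgeR quasi-likelihood test, adjusted p = 0.131). On library totals in place of TMM sizes it was -0.48 with an adjusted p of 0.0482 in the same test, and over the 9 other settings the adjusted p ranged from 0.0482 to 0.460. A + NR differed from aged HSC by 0.28, with an interval from -0.06 to 0.62. The order of the group means was young, A + NR and aged, and no neighbours in it differed beyond their spread.

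Becn1 encodes Beclin 1, the scaffold of the PI3K complex (chromosome 11, 101285952 to 101302286, minus strand). It was the least counted of the 10, with 7 to 128 counts per library in aged HSC. Its mean was 12.5 ± 4.30 CPM in young, 11.1 ± 1.52 CPM in aged and 11.8 ± 1.37 CPM in A + NR HSC. Young replicate 3 had the highest value, 19.3 CPM, and young replicate 1 the lowest, 8.42 CPM. The log2 difference between aged and young HSC was -0.13 with an interval from -0.58 to 0.31, and without young replicate 3 it was 0.07. Becn1 shares 3104 of its 7065 annotated exon bases with Cntd1 on the opposite strand, a gene outside the count table. In the last 400 bases of its longest coding transcript, the end that these libraries favour, a match to Cntd1 spanned 297 bases. Whether counting used the strand is not given in the sources used here, and without strand the reads of such a pair cannot be told apart.

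The conjugation genes Atg7 and Atg5 did not pass the test in any comparison. Atg7 encodes the enzyme that activates both ubiquitin-like proteins of the pathway (chromosome 6, 114643097 to 114860614, plus strand). Its level was 44.8 ± 2.58 CPM in young, 45.4 ± 4.11 CPM in aged and 51.8 ± 8.93 CPM in A + NR HSC. All 3 groups overlapped, and A + NR replicate 3, at 67.3 CPM, stood above the other 14 libraries. The log2 difference between aged and young HSC was 0.03 with an interval from -0.22 to 0.29, and its sign turned on other settings (given below). Atg5 encodes the protein to which ATG12 is joined (chromosome 10, 44268358 to 44364291, plus strand). It was read at 53.4 ± 7.83 CPM in young, 56.9 ± 11.2 CPM in aged and 45.3 ± 3.96 CPM in A + NR HSC. Among aged libraries, replicate 2 was lowest at 38.9 CPM and the other 4 lay between 56.5 and 69.7 CPM, above every A + NR library. A + NR differed from aged HSC by -0.36 on the log2 scale, with an interval from -0.65 to -0.07 (edgeR quasi-likelihood test, adjusted p = 0.109). Leaving out aged replicate 2, the shallowest library, gave -0.44 with an adjusted p of 0.0461 in the same test, within a range of 0.0461 to 0.271 over the 15 libraries left out in turn.

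RefSeq promoter sequences were matched for 8 of the 10 genes, and 2 short stretches are shown because they carry the E-box CACGTG, the core of the element that TFEB, a master regulator of lysosome and autophagy genes, is known to bind. The search covered both strands of the 250 bases before each start in RefSeq, which need not be the first start of the GENCODE gene. The Atg7 stretch lies inside the GENCODE gene, before an internal start, and the Map1lc3b stretch lies just inside the GENCODE start, while the Atg5 stretch lies before it. The first 2 lines give the E-boxes of Atg5 (GRCm38.p6, plus strand, chr10:44268315-44268340) and Atg7 (chr6:114670954-114670979), and the third, shown because Map1lc3b rose, gives the GC box (GGGCGG or its reverse complement) of that gene (chr8:121590391-121590416, plus strand), with the motif in capitals.
Atg5: gagcgcttgcCACGTGgtcttggtga
Atg7: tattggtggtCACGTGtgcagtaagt
Map1lc3b: ctctcgggggCCGCCCtcggccccac
The E-box was in 2 of the 8 windows and in 6.02% of all 32851 promoter windows, and the GC box was in 5 of the 8 and in 32.7% of all. The FOXO site GTAAACA was in none of the 8 and in 3.17% of all. The E-box windows were those of Atg5 and Atg7, while Becn1 and Bnip3l had no matched window to search. Whether these motifs bear on the levels of the 10 genes was not tested. A match in letters is a description and not a bound site.

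The ATG8 family genes Map1lc3b and Gabarap were the most deeply counted of the 10. Map1lc3b lies on chromosome 8, from 121590361 to 121598760, on the plus strand. It shares 58 of its 7517 annotated exon bases with Zcchc14 on the opposite strand, a gene that is also in the count table. In replicate order, the young libraries held 289.8, 370.1, 303, 229 and 268 CPM. The aged libraries held 427, 442, 514, 383 and 458 CPM, all above the highest young library. The A + NR libraries held 301, 334, 292, 321 and 315 CPM, inside the young range and below every aged library. Group means were 292 ± 52.0 CPM in young, 445 ± 47.8 CPM in aged and 312 ± 16.7 CPM in A + NR HSC. Map1lc3b rose in aged HSC by 0.61 ± 0.12 on the log2 scale (SE, edgeR quasi-likelihood test, Benjamini-Hochberg adjusted p = 0.00127). It was lower in A + NR than in aged HSC by a log2 difference of -0.51 ± 0.12 (same test, adjusted p = 0.0133). A + NR and young HSC, neighbours in the order of levels, differed by 0.10 with an interval from -0.14 to 0.34, which a p above the threshold does not show to be 0.

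Map1lc3b stayed higher in aged HSC under every setting tried, with log2 differences of 0.49 to 0.64 over 9 other settings and 0.53 to 0.71 with 1 library left out. Without young replicates 1 and 5 the difference was 0.57, and without young replicate 3 it was 0.63. The fall with NR was -0.44 and no longer passed (edgeR, adjusted p = 0.0533) without aged replicate 3, which held the highest aged value. Over all 15 libraries left out in turn the adjusted p of that fall ranged from 0.00642 to 0.0533. By median, the erythroid, B and plasma cell, granulocyte and monocyte sums were highest in aged HSC, as Map1lc3b was. The T and NK cell and platelet sums overlapped between all groups, and young replicate 3 held the highest granulocyte and monocyte sums. The part of these sums in the differences of Map1lc3b was not tested.

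Gabarap lies on chromosome 11, from 69991143 to 69994951, on the plus strand. The young libraries held 187, 212, 194, 197 and 202 CPM. The aged libraries held 230.0, 209, 243, 260.5 and 298 CPM, of which only replicate 2, at 209 CPM, fell within the young range. The A + NR libraries held 202, 217, 227, 198 and 199 CPM. Means were 198 ± 9.61 CPM in young, 248 ± 33.7 CPM in aged and 209 ± 12.8 CPM in A + NR HSC. The SD of the aged group was thus larger than those of both other groups. Gabarap rose in aged HSC by 0.33 ± 0.10 on the log2 scale (SE, edgeR quasi-likelihood test, adjusted p = 0.0256). A + NR differed from aged HSC by -0.26, with an interval from -0.46 to -0.05 (adjusted p = 0.112), and from young HSC by 0.07, with an interval from -0.13 to 0.28.

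The rise of Gabarap was less stable than that of Map1lc3b. On library totals it was 0.20 (edgeR, adjusted p = 0.115). Its adjusted p in edgeR was above 0.05 without young replicate 1 (0.0590), young replicate 4 (0.0510), aged replicate 4 (0.0518) or aged replicate 5 (0.0900), and was 0.110 without young replicates 1 and 5 together. It ranged from 0.0132 to 0.0900 over libraries left out in turn and from 0.00639 to 0.115 over the 9 other settings. The direction was the same in all of these, with log2 differences of 0.20 to 0.40.

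Sqstm1 encodes p62, the receptor that ties ubiquitin-marked cargo to LC3 (chromosome 11, 50199366 to 50210827, minus strand). Its mean level was 87.8 ± 21.4 CPM in young, 97.7 ± 13.6 CPM in aged and 103 ± 14.4 CPM in A + NR HSC. The spread was widest in young HSC, from 71.0 CPM in replicate 3 to 125 CPM in replicate 2, and the ranges of all 3 groups overlapped. The log2 difference between aged and young HSC was 0.17 with an interval from -0.14 to 0.47, and that between A + NR and aged HSC was 0.06 with an interval from -0.24 to 0.37. Sqstm1 shares 580 of its 3356 annotated exon bases with Mrnip on the opposite strand, which is also in the count table, and their reads cannot be told apart without strand. In the last 400 bases of the longest coding Sqstm1 transcript, the end that these libraries favour, a match to Mrnip spanned 233 bases.

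Among the mitophagy genes, Pink1, the kinase that recruits Parkin to damaged mitochondria (chromosome 4, 138313409 to 138326307, minus strand), had the closest group means of the 10. They were 92.8 ± 10.9 CPM in young, 91.0 ± 12.2 CPM in aged and 89.4 ± 9.01 CPM in A + NR HSC. The libraries of all 3 groups spanned 77.8 to 106 CPM with full overlap. The log2 difference was -0.04 between aged and young HSC, with an interval from -0.29 to 0.20, and -0.01 between A + NR and aged HSC, with an interval from -0.25 to 0.23. Its sign turned under several settings, given below.

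Fundc1 lies on the X chromosome, from 17556564 to 17572325, on the minus strand. In replicate order the young libraries held 73.3, 90.4, 67.4, 72.2 and 79.6 CPM. The aged libraries held 105, 117, 126, 102 and 119 CPM, all above the highest young library. The A + NR libraries held 75.7, 82.9, 88.3, 74.1 and 83.1 CPM, all below the lowest aged library and within the young range. Means were 76.6 ± 8.88 CPM in young, 114 ± 9.95 CPM in aged and 80.8 ± 5.82 CPM in A + NR HSC. Fundc1 rose in aged HSC by 0.57 ± 0.11 on the log2 scale (SE, edgeR quasi-likelihood test, adjusted p = 0.000993), the smallest adjusted p among the 10 genes. It was lower in A + NR than in aged HSC by a log2 difference of -0.49 ± 0.10 (same test, adjusted p = 0.0103). A + NR and young HSC differed by 0.08, with an interval from -0.14 to 0.30.

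Young replicates 1 and 5, the libraries with Y-linked transcripts, held 73.3 and 79.6 CPM of this X-linked gene, inside the range of the other young libraries. Without both, the rise with age was 0.57 (edgeR, adjusted p = 0.0110), the highest in a range from 1.64e-05 over the 9 other settings. The fall with NR was -0.45 (edgeR, adjusted p = 0.0872) after all libraries were thinned to 764119 counts, where it no longer passed, and its adjusted p ranged from 0.000675 to 0.0872 over the 9 settings. In every setting tried the direction was the same.

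Bnip3l lies on chromosome 14, from 66985239 to 67008877, on the minus strand. The young libraries held 106, 106, 103, 114 and 111 CPM. The aged libraries held 128, 117, 115, 114 and 112 CPM and overlapped the young ones. The A + NR libraries held 94.3, 90.0, 79.3, 71.2 and 97.2 CPM, below every library of both other groups. Means were 108 ± 4.41 CPM in young, 117 ± 6.37 CPM in aged and 86.4 ± 10.9 CPM in A + NR HSC. Bnip3l was lower in A + NR than in aged HSC by a log2 difference of -0.44 ± 0.10 (SE, edgeR quasi-likelihood test, adjusted p = 0.0137). Aged and young HSC differed by 0.12, with an interval from -0.09 to 0.33. A + NR and young HSC differed by -0.32, with an interval from -0.53 to -0.11 (edgeR quasi-likelihood test, adjusted p = 0.0774). In DESeq2 the adjusted p of that last difference was 0.0369, the lowest over the 9 other settings, which ran up to 0.814.

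The fall of Bnip3l with NR was -0.30 on library totals (edgeR, adjusted p = 0.0638) and -0.23 in thinned counts (adjusted p = 0.408), so the call was lost in both. Over the 9 other settings its adjusted p ranged from 0.00154 to 0.408, and over libraries left out in turn from 0.0124 to 0.0452. The erythroid sum was 2313 to 4690 CPM in young, 5590 to 9003 CPM in aged and 1949 to 3073 CPM in A + NR HSC, and its part in the differences of Bnip3l was not tested.

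The genes whose log2 CPM followed these patterns most closely across the 15 libraries were looked up among 7115 genes that averaged 20 CPM or more. For Map1lc3b they were Tspan13 (Pearson's r = 0.953), Tmem59 (0.944) and Laptm4a (0.941), and after the group means were removed these values were 0.886, 0.773 and 0.748. For Fundc1 they were Tnfaip8 (r = 0.932), Nsa2 (0.928) and Ccndbp1 (0.922), with 0.590, 0.665 and 0.783 within groups. For Gabarap they were Rpl10 (r = 0.899) and Rps3a1 (0.890), ribosomal protein genes, and Utp11 (0.887), with 0.844, 0.734 and 0.718 within groups. Without the 2 libraries furthest from the median of Gabarap, r was 0.733, 0.684 and 0.784. For Bnip3l they were Ap2b1 (r = 0.861), Hba-a1 (0.854) and Tmem97 (0.846), with 0.553, 0.437 and 0.695 within groups. In the same order, Spearman's rho over the 15 libraries was 0.904, 0.925 and 0.654. Without the 2 libraries furthest from the median of Bnip3l, r was 0.923, 0.818 and 0.554. For Map1lc3b and Fundc1, with 2 libraries left out in this way, r was at least 0.885. These are descriptions over 15 libraries that share their groups and their scaling.

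The rest of the pathway was followed in 58 genes in 9 lists by role. Of these, 6 rose and 4 fell in aged HSC, and the median log2 difference over the 58 was 0.01. From aged to A + NR HSC 1 rose and 3 fell, with a median of -0.03. Between A + NR and young HSC none passed edgeR's test or DESeq2's, 7 had an unadjusted p under 0.05, and the median was 0.02. The libraries of aged and young HSC did not overlap for 8 of the 58 genes, those of A + NR and aged HSC for 6, and those of A + NR and young HSC for 1. Beside these counts stand the shares of all genes, 19.3% passing in aged against young and 8.07% in A + NR against aged HSC, and 12.4%, 8.60% and 4.74% without overlap in the 3 comparisons, so the 58 genes lay near or below the table as a whole. The count of 10 in aged against young HSC was 16 without young replicate 2, 6 without aged replicate 3, 5 without aged replicate 5 and 4 without young replicates 1 and 5. The larger counts and the direction of single genes are shown in the plot of the 58 genes by role.

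**Figure D4:**
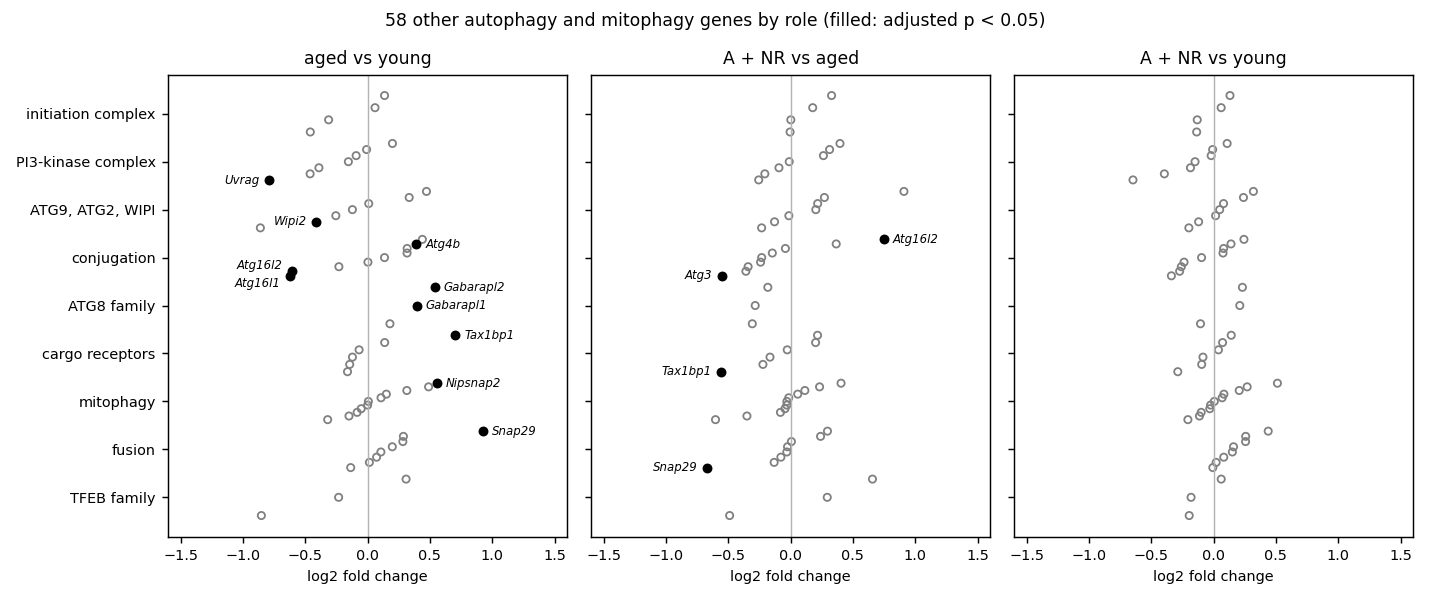
Log2 fold changes (horizontal axes) of 58 other autophagy and mitophagy genes, grouped by role, in the 3 comparisons. Each point is 1 gene, and filled, named points passed an adjusted p of 0.05 in edgeR's quasi-likelihood test. In aged against young HSC 6 filled points lie above 0 and 4 below, and in A + NR against aged HSC 1 lies above and 3 below.

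None of the 4 other genes of the initiation complex (Ulk2, Atg13, Rb1cc1 and Atg101) passed in any comparison. Of 7 other genes of the PI3K complexes, Uvrag, a partner of Beclin 1, fell in aged HSC from a mean of 41.0 to 23.0 CPM, by 0.79 on the log2 scale, and stood at 31.1 CPM in A + NR HSC. Its aged libraries, 16.9 to 28.8 CPM, lay below all young libraries, 31.3 to 48.1 CPM. Of 7 genes for ATG9, ATG2 and the phosphoinositide-binding WIPI proteins, Wipi2 fell by 0.42 on the log2 scale, from 80.8 to 60.8 CPM. That call was lost in 7 of the 15 fits with 1 library left out and under 2 of the 9 other settings.

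Conjugation held genes that moved both ways. Atg4b, a protease that prepares and recycles ATG8 proteins, rose in aged HSC from 40.9 to 53.7 CPM, by 0.39 on the log2 scale. Atg16l1 and Atg16l2, which encode partners of the ATG12-ATG5 conjugate, fell from 29.5 to 19.6 CPM and from 29.7 to 19.6 CPM, by 0.63 and 0.61 on the log2 scale. Atg16l2 was higher in A + NR than in aged HSC, at 32.9 CPM, by a log2 difference of 0.75, a call that was lost in 3 of the 15 fits with 1 library left out and under 1 of the 9 other settings. Atg3, the enzyme that hands ATG8 proteins to the lipid, was lower in A + NR than in aged HSC, at 48.4 against 71.1 CPM and a log2 difference of -0.55, and all A + NR libraries lay below all aged ones. In aged against young HSC its log2 difference was 0.32, with an interval from 0.07 to 0.56 (edgeR, adjusted p = 0.0655). With 1 library left out, the aged against young calls were lost in 3 fits for Atg4b, 4 for Atg16l1 and 5 for Atg16l2. Under the 9 other settings these calls were lost in 3, 2 and 2, in the same order.

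The other ATG8 genes went the way of Map1lc3b and Gabarap in aged HSC. Gabarapl1 rose from 247 to 323 CPM, by 0.39 on the log2 scale, and Gabarapl2 from 23.3 to 34.9 CPM, by 0.54. Map1lc3a had a log2 difference of 0.18 and did not pass. With Map1lc3b and Gabarap counted, 4 of the 5 ATG8 genes in the table passed with higher values in aged HSC, where 9.68% of all genes did, and 1 of them, Map1lc3b, passed with lower values in A + NR than in aged HSC. The log2 differences of Gabarapl1 and Gabarapl2 between A + NR and aged HSC were -0.18 and -0.31, with intervals from -0.42 to 0.06 and from -0.64 to 0.02. On library totals Gabarapl1 and Gabarapl2 kept their direction, with values of at least 0.26 and 0.41 over the 9 other settings, though the calls were lost in 3 and 2 of these 9 and in 2 and 3 of the 15 fits with 1 library left out.

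Of 6 other cargo receptor genes, Tax1bp1, which binds ubiquitin and ATG8 proteins, moved in both comparisons. Its young libraries held 643, 841, 915, 628 and 679 CPM, its aged libraries 1205, 1304, 1116, 1150.1 and 1260.0 CPM and its A + NR libraries 859, 718, 758, 848 and 902 CPM. Aged libraries lay above those of both other groups. The log2 differences were 0.70 ± 0.11 for aged against young HSC (SE, edgeR quasi-likelihood test, adjusted p = 0.000285) and -0.56 ± 0.11 for A + NR against aged HSC (adjusted p = 0.00834). Both calls held in every setting tried.

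Snap29, a SNARE protein that helps autophagosomes fuse with lysosomes, had the largest rise of the 58. The young libraries held 81.8, 75.2, 85.8, 89.2 and 74.7 CPM, the aged ones 163, 153, 178, 135 and 144 CPM, and the A + NR ones 89.8, 82.6, 96.8, 86.6 and 129 CPM. No aged library overlapped either group. Snap29 rose by 0.93 ± 0.12 on the log2 scale in aged HSC (SE, edgeR quasi-likelihood test, adjusted p = 3.74e-05) and was lower in A + NR than in aged HSC by a log2 difference of -0.67 ± 0.12 (adjusted p = 0.00506). Both calls held in every setting tried. The other 7 fusion genes and the 3 TFEB family genes did not pass in any comparison.

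Of 11 other mitophagy genes, Nipsnap2, which encodes a mitochondrial protein that can act as a mark for mitophagy, rose in aged HSC from 358 to 527 CPM, by 0.56 on the log2 scale (edgeR, adjusted p = 0.0108), and stood at 413 CPM in A + NR HSC. Parkin (Park2 in the table), Bnip3 and the remaining 8 did not pass. The mean level of Bnip3, a receptor related to BNIP3L, was 4.53 CPM in aged and 3.24 CPM in young HSC, near the 3.89 CPM that 3 counts made in the shallowest library.

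The study itself scored 13 positive regulators of mitophagy, 2 of them, Pink1 and Sqstm1, among the 10 genes. The study took the list from an annotation of gene function and scored it by rank among the most highly expressed genes of each library. The reported score was higher in A + NR than in aged HSC and not distinguishable from that of young HSC. Single genes tested here on these same libraries are another measure than that score and not independent evidence of a direction. In aged HSC 4 of the 13 fell, where 9.63% of all genes did, and 6 had an unadjusted p under 0.05, as did 5357 of all 16154 genes. The median log2 difference was -0.32. Hdac6, a deacetylase that acts on ubiquitin-marked aggregates, fell from 18.2 to 9.49 CPM, Huwe1 and Vps13d fell from 168 to 108 CPM and from 40.3 to 26.5 CPM, and Trp53, which encodes the p53 tumour suppressor, fell from 162 to 129 CPM. The call of Trp53 was lost in 5 of the 15 fits with 1 library left out and under 4 of the 9 other settings, that of Vps13d in 1 of each, and that of Hdac6 under 1 of 8. In A + NR against aged HSC 1 of 13 rose, where 3.88% of all genes did, and this was Hdac6, at 15.4 CPM, with a log2 difference of 0.65 (edgeR, adjusted p = 0.0496), and the median was 0.22. That call was lost in 12 of the 15 fits with 1 library left out, in which the adjusted p ran from 0.0401 to 0.148. It was also lost under 4 of 8 other settings. Between A + NR and young HSC none of the 13 passed in edgeR, none had an unadjusted p under 0.05, and the median was -0.05.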

How the data were processed

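RNA from 15 sorted HSC samples was sequenced as 3′ biased libraries with UMIs. The authors aligned reads to GRCm38 with STAR 2.4.2a, removed UMI duplicates, counted exonic reads on GENCODE genes with featureCounts and deposited the whole-number counts, without normalisation, for 16154 genes that passed their low-count filter. The handling of reads with several matches is not given in the sources used here. No sample column was left out (0 unused), and the deposited table holds no comparison of the authors.

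All 15 libraries were fitted together with edgeR 4.0.16 (R 4.3.3) on TMM sizes, with a term for group and no covariate. Genes were tested by quasi-likelihood, and p-values were adjusted by Benjamini and Hochberg's method across the whole table at a threshold of 0.05. The standard error is the log2 fold change over the square root of F. The study used the likelihood ratio test, which was an alternative here, with DESeq2 1.42.0, other size factors, a filter of at least 10 counts in every library (8444 genes), fits of 2 groups, thinned counts, the replicate number as a block and libraries left out. The fit without young replicates 1 and 5 was added after the data were seen. The script was tested on simulated data. P-values measure the spread between libraries, each described as an individual mouse, though young replicates 1 and 5 held both Y-linked transcripts and Xist. Limits of 3 counts cover counting error only.

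The genes, the lists and the tests were chosen with earlier results of these data known. All 10 genes are named, and of the other lists the genes that passed in either comparison with aged HSC. For patterns most alike, the 3 genes with the highest Pearson's r for each gene that passed are named. Of 59 genes listed, 58 were in the table. Promoters are from RefSeq (GRCm38.p6) and positions from GENCODE M21, while counting used an earlier release. The last 400 bases of each gene's longest coding transcript were compared with all transcripts (blastn 2.17.0), and matches of at least 72 bases at 98% identity were found to the overlapping genes Cntd1 and Mrnip only. That minimum is longer than the 58 bases that Map1lc3b shares with Zcchc14. Libraries of a group were not copies (chi-square per degree of freedom 3.00 to 16.7). Other steps used Python 3.11.15, pandas 2.3.3, NumPy 2.4.6 and matplotlib 3.10.9.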

Additional observations from a re-analysis of the deposited data

Results flagged for a closer look

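In 75 groups of 5 libraries (25 genes), 4 held a library far from the other 4, measured as the gap to its nearest neighbour over the range of the group, and chance gives about 1 in 20. Atg7 in A + NR replicate 3 was at 67.3 CPM, with the other 4 libraries at 46.3 to 51.9 CPM. Atg3 in young replicate 2 was at 47.4 CPM, with the others at 58.4 to 61.5 CPM, and Atg3 in A + NR replicate 2 was at 41.4 CPM, with the others at 49.4 to 52.3 CPM. Gabarapl2 in A + NR replicate 5 was at 37.0 CPM, with the others at 22.6 to 25.7 CPM. These libraries were not those with Y-linked transcripts, the shallow one or the one with high granulocyte sums. The cause was not tested.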

How the results depend on the processing

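For the 10 genes, 434 of 450 values with 1 library left out and 249 of 267 under other settings kept their direction and side of the threshold. None of the values that passed the test changed sign. In aged against young HSC, Atg7 was -0.10 on library totals, -0.033 with at least 10 counts, -0.17 in thinned counts and -0.019 to 0.061 with 1 library left out. On library totals Atg5 was -0.012 and Bnip3l -0.0039, Pink1 was 0.019 in thinned counts and -0.10 to 0.0064 with 1 left out, and Becn1 was -0.25 to 0.069. In A + NR against aged HSC, Pink1 was 0.014 in DESeq2, 0.13 on library totals, 0.0012 on DESeq2 size factors, 0.066 with at least 10 counts and -0.055 to 0.048 with 1 left out. In A + NR against young HSC with 1 left out, Ulk1 was -0.16 to 0.019 and Becn1 -0.18 to 0.13. The cause was not tested.

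Of the 10 genes, thinning left 1 passing in A + NR against aged HSC, and DESeq2 gave 1 in A + NR against young HSC. Of the 58 genes, thinning left 6 in aged against young HSC, leaving out young replicates 1 and 5 left 4, and leaving out 1 library gave 5 to 16. In A + NR against young HSC it gave 0 to 2. Over all genes, aged against young HSC had 3120 calls, 1550 thinned, 1862 without young replicates 1 and 5, and 1953 (without aged replicate 3) to 3533. A + NR against aged HSC had 1303, and 783 of the 8444 genes with at least 10 counts, where again 3 of the 9 passed. It had 409 thinned, and 422 (without aged replicate 3) to 1535 with 1 library left out. Within that range it had 607 without aged replicate 5, and 538 and 534 without A + NR replicates 3 and 4. A + NR against young HSC had 722, 405 thinned, and 452 (without A + NR replicate 4) to 922.

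Library totals moved the median of all genes to -0.16 in aged against young and 0.16 in A + NR against aged HSC, and the share of calls that were higher from 50.1% to 29.1% and from 48.1% to 78.4%. On totals, 2 of the 10 genes rose and 1 fell with age, and 2 fell with NR. Replicate numbers gave no sign of pairing: same-numbered deviations correlated by -0.27 to 0.13 in 15 pairs. In both other groups at once, 0 of the libraries correlated best with their own number. With the replicate number as a block, 2, 3 and 0 of the 10 genes passed in the 3 comparisons, and Gabarap had an adjusted p of 0.0504 in edgeR. The depth of aged replicate 2 limits Becn1 most, with 7 counts.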
